A study of Mus musculus with 8 samples.

Results

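The metallothionein genes Mt1 and Mt2 and the heme oxygenase gene Hmox1 were followed through acetylated histone H3 (H3ac) in the mouse macrophage line RAW 264.7. They were located by 2 windows on chromosome 8 of build GRCm39, from 94888000 to 94915000 for Mt2 and Mt1 and from 75805000 to 75833000 for Hmox1. Of the 193863 peaks on chromosomes in the 4 library peak lists, 56 lay in these windows. Merged wherever they overlapped, they formed 25 of the 81544 regions of the series, 11 in the metallothionein window and 14 in the Hmox1 window. The CuNZ@Gel group and the Gel group had 2 H3ac libraries each. The labels give 48 h of exposure for every sample, but the shared protocol names extracts of CuNZ@Gel alone, so what the Gel cells received is known only from their treatment label. The abbreviation CuNZ is not spelled out in the labels, and the series title speaks of a nanozyme hydrogel. No label says that replicates were cultured apart, and their spread may therefore be technical.

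Acetylation of histone H3 marks the promoters and enhancers of active genes. Metallothioneins are small, cysteine-rich proteins that bind zinc and copper, and their genes are switched on by the metal-sensing factor Mtf1 at metal response elements. Hmox1 encodes the inducible enzyme that breaks heme down to biliverdin, iron and carbon monoxide. It is repressed by Bach1 and induced through Nrf2 by heme, metals and oxidants, and in macrophages it serves the recycling of heme iron.

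RefSeq promoter sequences were at hand for Mt1 and Mt2, 2 of the 3 members, and they are shown because metal response elements are what these genes are known for. The metal response element core was searched as TGCACNC or TGCGCNC, and the antioxidant response element core, the site of Nrf2 with small Maf proteins, as TGACNNNGC, on both strands over 300 bases around the start. The 250 bases before the start are printed below, with matches in capitals. They are those of chr8:94172368-94172617 for Mt2 and chr8:94178839-94179088 for Mt1, on the plus strand of GRCm38.p6, a build whose positions cannot be set beside those of the peaks.
Mt2: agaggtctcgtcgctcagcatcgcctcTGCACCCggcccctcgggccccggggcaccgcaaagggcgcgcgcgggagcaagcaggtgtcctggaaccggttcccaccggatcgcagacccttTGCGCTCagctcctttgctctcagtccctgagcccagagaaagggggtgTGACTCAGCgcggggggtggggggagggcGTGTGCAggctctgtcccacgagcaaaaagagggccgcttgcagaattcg
Mt1: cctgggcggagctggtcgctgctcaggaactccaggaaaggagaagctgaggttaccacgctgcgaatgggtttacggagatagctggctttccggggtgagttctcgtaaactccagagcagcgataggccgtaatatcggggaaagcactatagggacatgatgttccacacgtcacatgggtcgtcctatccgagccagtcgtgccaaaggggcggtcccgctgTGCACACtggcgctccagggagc
Mt2 had 3 matches to the metal response element core before the start and 1 after it, and Mt1 had 1 before and 2 after. At least 3 such matches were found in 1.97% of the 32851 promoters in the table and at least 4 in 0.517%. A single match to the antioxidant core stood in the bases searched for Mt2, where 12.4% of all promoters had at least 1, and none in those for Mt1. Before and after refer to the listed RefSeq start alone. Bases outside the 300 were not searched, so elements of either promoter that lie there are not counted. No match to one core overlapped a match to the other. Whether a peak covered these bases could not be read from the lists.

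The peak lists carry no gene names. In the RefSeq gene table, which is of the same other build, Mt2 stands directly before Mt1 along chromosome 8. On that order alone, the stronger pair of H3ac regions in the metallothionein window is called here the Mt2-side region, from 94897900 to 94901226, and the Mt1-side region, from 94905817 to 94908002. The Hmox1 region, from 75820266 to 75822619, was the sole region of its window with peaks in every library. The metallothionein window held another 2 such shared regions, one between the Mt2-side and Mt1-side regions, from 94904278 to 94905511, and one beyond Mt1, from 94909272 to 94909857. Other genes of metal and heme handling and the markers of macrophages were not analysed here, because no gene positions of the peak lists' build were at hand.

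**Figure D1:**
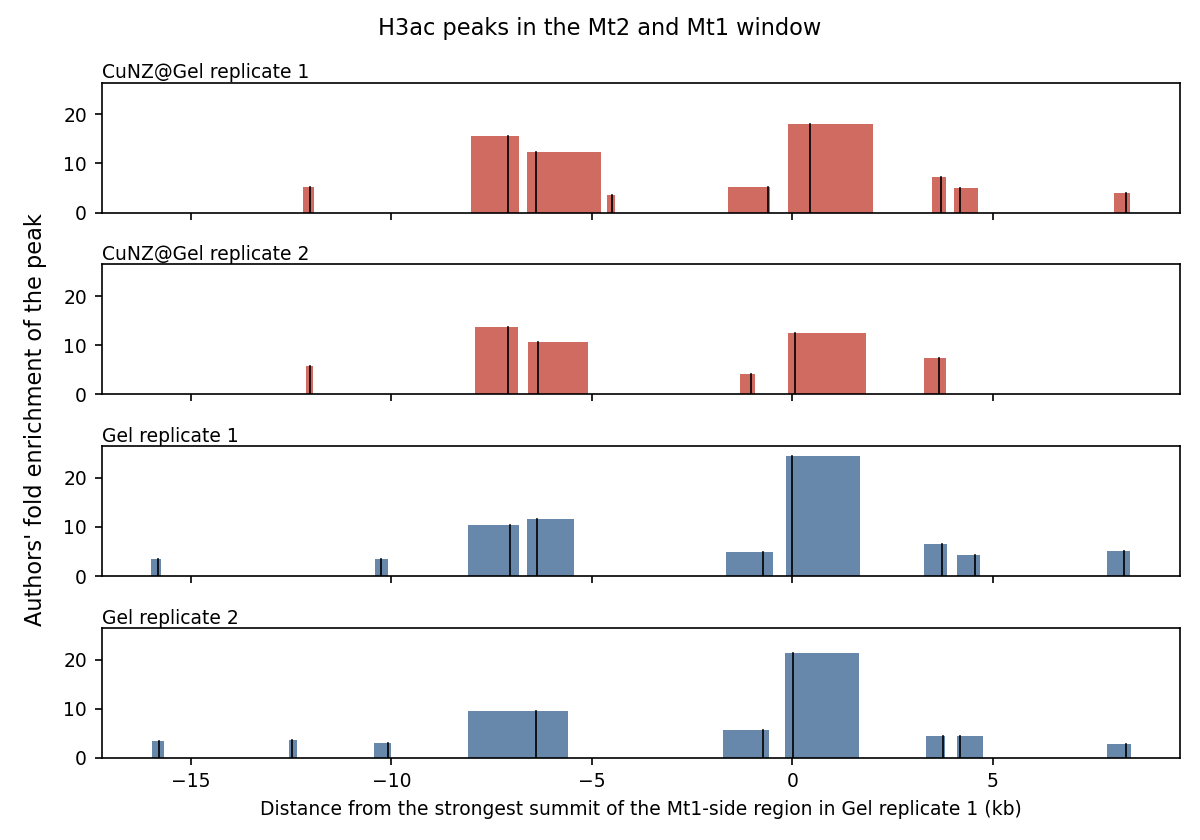
Peaks in the metallothionein window, 1 row per library with CuNZ@Gel above Gel. Each bar spans a peak in kb from the strongest Mt1-side summit of Gel replicate 1, its height is the authors' fold enrichment and the black line marks the summit; the Mt1-side bar reaches 17.99 and 12.4 in the CuNZ@Gel rows and 24.5 and 21.3 in the Gel rows.

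The Gel lists were the longer ones, with 40075 and 34693 peaks in CuNZ@Gel replicates 1 and 2 and 58612 and 60483 in Gel replicates 1 and 2. The commonest background, a measure of depth in fragments per base at the summit, was 3.45 and 2.46 in the CuNZ@Gel libraries and 4.62 and 4.28 in the Gel libraries. Over the whole genome, peaks in CuNZ@Gel covered 56.6% of the length that they covered in Gel. In the metallothionein window they covered 8062 and 5615 bp in CuNZ@Gel and 7726 and 8095 bp in Gel. The mean was 6838.5 ± 1730 bp in CuNZ@Gel and 7910.5 ± 261 bp in Gel (SD, n = 2 each), so CuNZ@Gel had 86.4% of the Gel length (exact two-sided permutation p = 0.667). In the Hmox1 window the lengths were 3586 and 3590 bp in CuNZ@Gel and 3455 and 3705 bp in Gel, with means of 3588 ± 2.83 bp in CuNZ@Gel and 3580 ± 177 bp in Gel (SD, n = 2 each; exact two-sided permutation p = 1). With 2 against 2 libraries, no permutation p under 0.333 can be reached. Neither window total differed beyond the spread between replicates, and the sign of each depended on 1 library. Without CuNZ@Gel replicate 2 the difference in the metallothionein window was 151.5 bp in place of -1072 bp, and without Gel replicate 1 that in the Hmox1 window was -117 bp in place of 8 bp. The totals also depended on the weaker peaks. With the lists brought to equal length by score, the difference was -33 bp in the metallothionein window (exact permutation p = 1) and 1255.5 bp in the Hmox1 window (exact permutation p = 0.333). With scores at or above the list median it was -522.5 bp (exact permutation p = 1) and 883.5 bp (exact permutation p = 0.333).

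The regions beside Mt2, Mt1 and Hmox1 were all wider in both CuNZ@Gel libraries than in either Gel library. At the Mt2-side region, peaks covered 3045 and 2544 bp in CuNZ@Gel and 2436 and 2492 bp in Gel. For the Mt1-side region the widths were 2117 and 1939 bp in CuNZ@Gel, against 1843 and 1830 bp in Gel. The Hmox1 region had 2294 and 2329 bp in CuNZ@Gel and 2028 and 1641 bp in Gel. In none of the 3 did the groups overlap, although CuNZ@Gel replicate 2 came close to the wider Gel library at the Mt2-side region. Of the 21909 shared regions of the series, 1.26% were wider in this sense and 74.5% were narrower. The other 2 shared regions of the metallothionein window were not among the wider ones. The region between had 1049 and 387 bp in CuNZ@Gel and 1161 and 1144 bp in Gel, so it was narrower without overlap. Gaps of 446 and 819 bp in CuNZ@Gel and 317 and 395 bp in Gel parted it from the Mt1-side region. With peaks within 500 bp merged, these 2 regions became 1, whose log2 width, CuNZ@Gel minus Gel, was -0.14 (limma adjusted p = 0.504). The greater width on the Mt1 side thus depended on where the region was cut. The region beyond Mt1 had 367 and 555 bp in CuNZ@Gel and 573 and 489 bp in Gel, and these groups overlapped.

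Fitted over all shared regions, none of these widths was called. In limma, with Benjamini-Hochberg adjustment over all shared regions, the log2 width of the Hmox1 region, CuNZ@Gel minus Gel, was 0.34 (SE 0.14, adjusted p = 0.137). It was 0.18 for the Mt2-side region (SE 0.12, limma adjusted p = 0.292) and 0.14 for the Mt1-side region (SE 0.10, limma adjusted p = 0.325). This fit called 7.46% of the shared regions lower and 0.032% higher, around a median of -0.47 on the log2 scale.

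The extra covered bases lay at the end of higher coordinate, the right end, in all 3 regions. The last covered base of the Mt2-side region was 346 to 835 bp further right in a CuNZ@Gel library than in a Gel library, over the 4 pairs. For the Mt1-side region the difference was 161 to 356 bp, and for the Hmox1 region 300 to 435 bp. A gap of 242 bp inside the Hmox1 region of Gel replicate 2 also took from its covered width. Among shared regions, 3.2% had a right end further out in both CuNZ@Gel libraries and 57.1% had it further in. The left ends did not move outwards. They lay 68 to 189 bp further in at the Mt2-side region and 57 to 77 bp further in at the Mt1-side region, as in 56.3% of shared regions, and overlapped between groups at the Hmox1 region, where the pairs differed by -11 to 34 bp. A left end further out was found in 3.35% of shared regions. Mt1 and Mt2 are both on the plus strand in the RefSeq table. These ends were compared after the values had been seen, and each right end gave an exact permutation p of 0.333 (two-sided, n = 2 each).

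**Figure D2:**
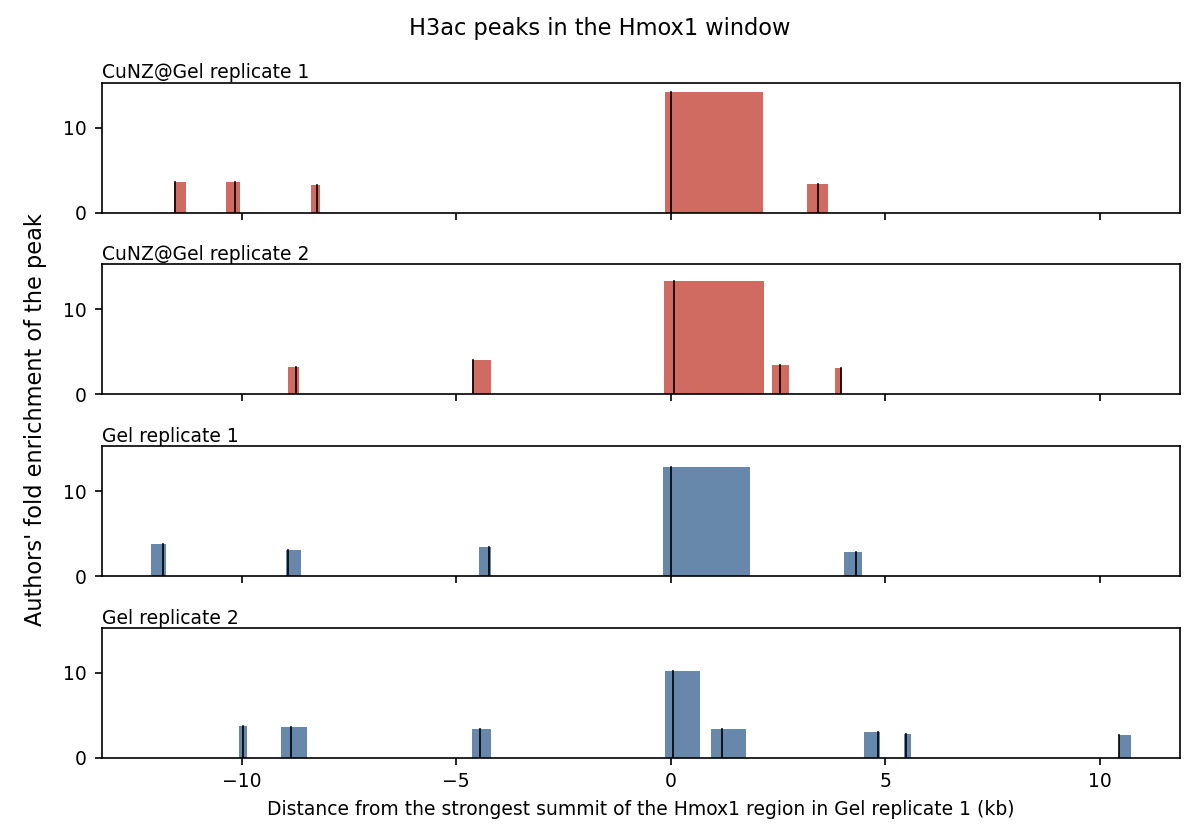
Peaks in the Hmox1 window, drawn as for the metallothionein window, with distances in kb from the strongest Hmox1 summit of Gel replicate 1. The CuNZ@Gel bars at 0 span 2294 and 2329 bp in 1 piece, while Gel replicate 1 spans 2028 bp and Gel replicate 2 has 2 pieces with a gap of 242 bp.

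The Mt1-side region was the strongest of the windows in Gel and lost most of its lead in CuNZ@Gel. The authors' fold enrichment of its peak was 17.99 and 12.4 in CuNZ@Gel and 24.5 and 21.3 in Gel. Its summit held 79 and 43 fragments in CuNZ@Gel, with exact 95% Poisson intervals of 62.5 to 98.5 and 31.1 to 57.9. In Gel it held 141 and 145, with intervals of 119 to 166 and 122 to 171, which cover counting error only. Summit height, the summit fragments divided by the library background, averaged 20.2 ± 3.83 in CuNZ@Gel and 32.2 ± 2.38 in Gel (SD, n = 2 each), with no overlap. In limma the log2 height fell by 0.68 (SE 0.13, adjusted p = 9.93e-05), and 28.2% of the shared regions were likewise called lower. The call held without any 1 library, at values between -0.88 and -0.49, but quantile normalization of the heights gave -0.25 (limma adjusted p = 0.428).

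The strongest summit of the Mt2-side region was higher in CuNZ@Gel, but it was not the same summit in each group. The strongest peak had a fold of 15.5 and 13.6 in CuNZ@Gel and 11.6 and 9.54 in Gel. The summit height was 19.7 and 18.7 in CuNZ@Gel and 13.9 and 14.02 in Gel. These values set a left summit in CuNZ@Gel against a right one in Gel. At the right summit CuNZ@Gel had folds of 12.4 and 10.7, which overlapped those of Gel, and heights of 15.65 and 14.63. The left summit had a height of 12.3 in Gel replicate 1 and no peak of its own in Gel replicate 2. Heights were above both Gel libraries in both CuNZ@Gel libraries in 7.18% of shared regions and below them in 56.7%. The limma log2 difference between the strongest summits was 0.46 (SE 0.15, adjusted p = 0.017), a direction in which only 0.908% of shared regions were called. Before scaling to depth the summit fragments overlapped, with 68 and 46 in CuNZ@Gel and 64 and 60 in Gel. The call rested on all libraries but 1: it was lost without CuNZ@Gel replicate 1 at a log2 height of 0.42 (limma adjusted p = 0.0533), without Gel replicate 1 at 0.45 (limma adjusted p = 0.139) and without Gel replicate 2 at 0.47 (limma adjusted p = 0.121).

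Hmox1 had the same order of the groups without passing the test. The fold of its strongest peak was 14.2 and 13.3 in CuNZ@Gel and 12.8 and 10.3 in Gel, and the height was 17.97 and 18.3 in CuNZ@Gel and 15.4 and 14.02 in Gel. The log2 height difference was 0.30 (SE 0.15, limma adjusted p = 0.126), and its unadjusted limma p was 0.05. Its summit fragments were 62 and 45 in CuNZ@Gel and 71 and 60 in Gel, so here too the order of the heights came with the scaling to depth. In the region beyond Mt1 the summit fragments overlapped before scaling to depth, with 31 and 25 in CuNZ@Gel and 36 and 22 in Gel. Once scaled, this region rose by 0.59 in log2 height (SE 0.21, limma adjusted p = 0.0307). Its heights were 8.99 and 10.2 in CuNZ@Gel and 7.79 and 5.14 in Gel. That call was lost without CuNZ@Gel replicate 2, at 0.51 (limma adjusted p = 0.0913), and without Gel replicate 2, at 0.29 (limma adjusted p = 0.529). It was also lost without limma's trend and robust options, at 0.59 (adjusted p = 0.0636), with quantile normalization, at 0.82 (limma adjusted p = 0.0593), and with the authors' fold in place of height, at 0.44 (limma adjusted p = 0.151). The region between Mt2 and Mt1 had heights of 6.38 and 5.28 in CuNZ@Gel and 7.36 and 7.71 in Gel, a log2 difference of -0.38 (SE 0.22, limma adjusted p = 0.198).

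**Figure D3:**
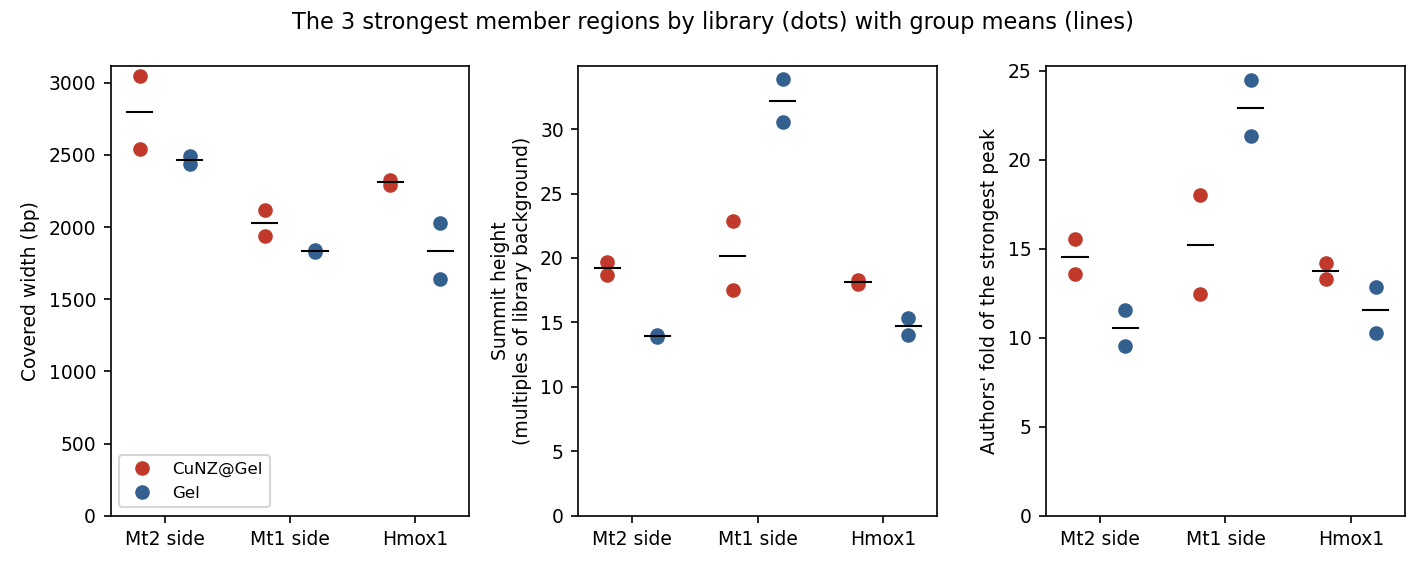
Covered width, summit height and the authors' fold of the Mt2-side, Mt1-side and Hmox1 regions, 1 dot per library, CuNZ@Gel left of Gel, with lines at the group means. The Mt1-side heights, 22.9 and 17.5 in CuNZ@Gel and 30.5 and 33.9 in Gel, run against those of the other 2 regions.

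Set against one another inside each list, where depth is common to both, the strongest peaks of the metallothionein regions drew level. The Mt2-side value was that of the left summit in CuNZ@Gel and of the right summit in Gel. At the right summit the Mt2-side folds in CuNZ@Gel were 12.4 and 10.7, below the Mt1-side folds of 17.99 and 12.43. The ratios that follow use the strongest peaks. The fold of the Mt1-side region was 1.16 and 0.915 times that of the Mt2-side region in CuNZ@Gel and 2.12 and 2.24 times in Gel. The mean was 1.04 ± 0.173 in CuNZ@Gel and 2.18 ± 0.0848 in Gel (SD, n = 2 each), a difference beyond the spread, with an exact two-sided permutation p of 0.333, the smallest possible. Against the Hmox1 region, the Mt1-side fold was 1.27 and 0.934 times as high in CuNZ@Gel and 1.91 and 2.08 times in Gel. The fold of the Mt2-side region was 1.10 and 1.02 times that of Hmox1 in CuNZ@Gel and 0.903 and 0.930 times in Gel. These 3 ratios, computed for fold and for height in 6 comparisons, were formed after the values had been seen. Among the shared regions, taken in the same number in every list, the Mt1-side region ranked 1155 and 3166 by fold in CuNZ@Gel and 1432 and 2030 in Gel, so its ranks overlapped. The Mt2-side region ranked 1916 and 2336 in CuNZ@Gel and 7211 and 8970 in Gel. The Hmox1 region ranked 2517 and 2477 in CuNZ@Gel and 6250 and 8208 in Gel.

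The strongest summit of the Mt2-side region lay at another place in each group, though its lead over the other summit was within counting error. A stretch of 207 and 263 bp free of peaks split this region in CuNZ@Gel replicates 1 and 2, and one of 207 bp split it in Gel replicate 1, while Gel replicate 2 had 1 peak across it. In CuNZ@Gel the strongest summit lay left of the gap, at 94898915 and 94898909, and in Gel it lay at 94899642 and 94899608, right of where the gap runs in the other libraries. The shift was 693 to 733 bp, against 6 bp between the CuNZ@Gel libraries and 34 bp between the Gel libraries. The left peak had a fold of 15.5 and 13.6 in CuNZ@Gel and of 10.3 in Gel replicate 1, and the right peak had 12.4 and 10.7 in CuNZ@Gel and 11.6 in Gel replicate 1. The left summit held 68 and 46 fragments in CuNZ@Gel (exact 95% Poisson intervals 52.8 to 86.2 and 33.7 to 61.4) and 57 in Gel replicate 1 (43.2 to 73.9). The right summit held 54 and 36 in CuNZ@Gel (40.6 to 70.5 and 25.2 to 49.8) and 64 in Gel replicate 1 (49.3 to 81.7). In each of these libraries the intervals of both summits overlap. Among shared regions, 0.466% had strongest summits within 100 bp inside each group and at least 500 bp apart between groups, a limit chosen after this shift had been seen. At the Mt1-side region the summits were 94906437 and 94906059 in CuNZ@Gel and 94905998 and 94906005 in Gel, and those of CuNZ@Gel were 378 bp apart. The Hmox1 summits lay within 70 bp of one another, at 75820441 and 75820509 in CuNZ@Gel and at 75820439 and 75820483 in Gel.

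Regions of like strength in Gel gave a closer standard, since the fall of width and height after CuNZ@Gel varied with strength. Each member was set beside the 500 shared regions nearest to it in mean Gel fold. The 500 regions around Hmox1, with a mean Gel fold of 11.2 to 11.8, had a median CuNZ@Gel to Gel ratio of 0.767 for width and 0.775 for height. The Hmox1 ratios were 1.27 and 1.24, and 1 of the 500 had a higher width ratio and 5 a higher height ratio. Around the Mt2-side region the medians were 0.751 for width and 0.789 for height. Its own ratios were 1.13 and 1.38, passed by 6 and by 1 of the 500. The Mt1-side region stood out from its like regions in width alone. Its width ratio of 1.10 was passed by 1 of 500 regions with a median of 0.806. Its height ratio of 0.622 lay below their median of 0.716, with 84 regions lower still. Of those 500 regions, 95.2% had heights below both Gel libraries in both CuNZ@Gel libraries. By the authors' fold, the Mt1-side ratio of 0.654 was close to the median of its like regions, 0.663, with 225 regions lower. The Mt2-side fold ratio was 1.38 against a median of 0.731. By fold, the Mt1-side fall was thus near that of its like regions. The Mt2-side ratio lay above its median, but it compared the strongest peaks, whose summit differed between the groups. The cause of the Mt1-side region's loss of lead was not tested. The region beyond Mt1 had a height ratio of 1.51, passed by 4 of 500 with a median of 0.905, and the region between had a width ratio of 0.553 and a height ratio of 0.771, with 177 and 73 of its 500 lower. The width of the region between rested on CuNZ@Gel replicate 2, which had 387 bp. Its log2 width difference of -0.86 was -0.14 without that library (limma adjusted p = 0.48), and without CuNZ@Gel replicate 1 it was -1.57 and called (limma adjusted p = 0.0256).

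**Figure D4:**
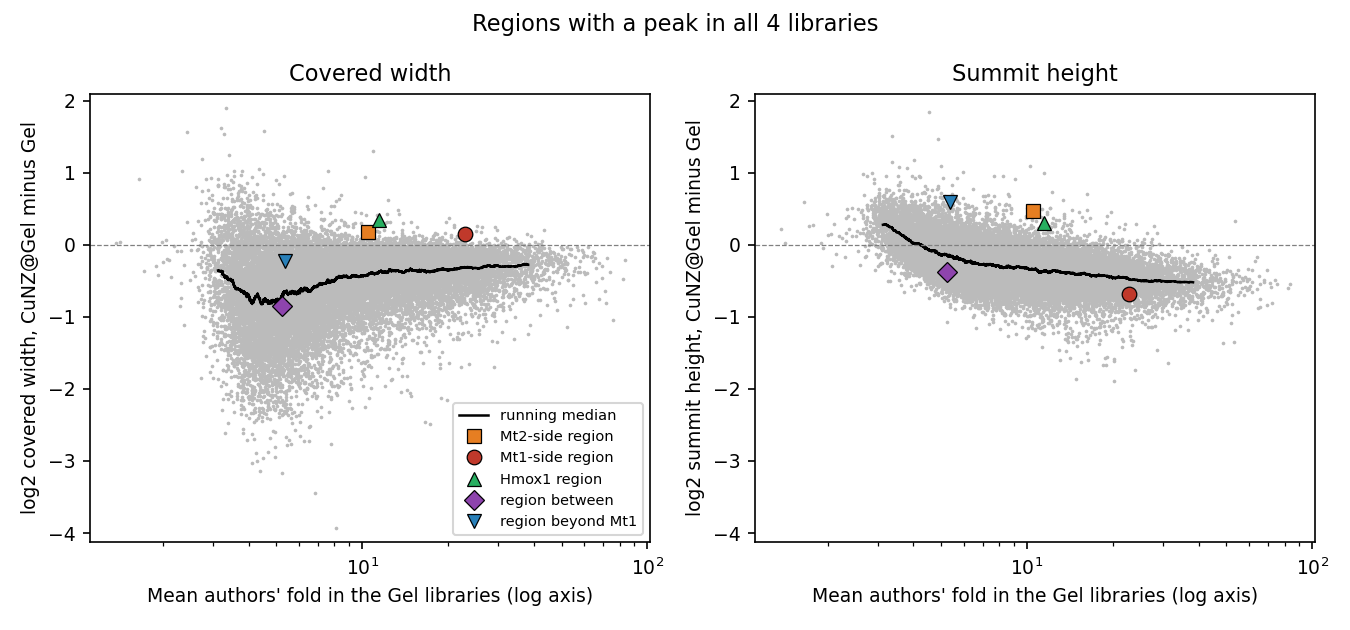
Change of covered width (left) and summit height (right), log2 CuNZ@Gel minus Gel, against mean Gel fold on a log axis for the 21909 shared regions (grey), with their running median (black) and the 5 member regions. The Mt2-side and Hmox1 regions lie above the grey cloud's centre in both panels, and the Mt1-side region does so for width but lies below the running median for height.

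The departures were then tested by a limma fit over all shared regions, after the median of the 500 like regions had been taken off in each library. For width, this fit called 0.0% of regions lower and 0.0% higher, with 3185 of 21909 at an unadjusted p under 0.05 and a smallest adjusted p of 0.236. The log2 departure of width was 0.78 for the Hmox1 region (SE 0.17, limma adjusted p = 0.248), 0.65 for the Mt2-side region (SE 0.11, limma adjusted p = 0.236) and 0.52 for the Mt1-side region (SE 0.15, limma adjusted p = 0.294). For height, the fit called 0.0685% of regions lower and 0.073% higher, none of them a member. The log2 departure of height was 0.80 for the Mt2-side region (SE 0.14, limma adjusted p = 0.0761) and 0.66 for the Hmox1 region (SE 0.15, limma adjusted p = 0.144). It was 0.75 for the region beyond Mt1 (SE 0.20, limma adjusted p = 0.216), -0.23 for the Mt1-side region (SE 0.18, limma adjusted p = 0.715) and -0.24 for the region between (SE 0.17, limma adjusted p = 0.661). Leaving out 1 library gave -0.44 to -0.015 for the Mt1-side region and -0.42 to -0.071 for the region between. No member thus passed this test of departure from regions of like Gel fold. The Mt2-side height passed it in 5 of 13 alternatives and the Hmox1 height in 1 of 13, all of them fits on the full 4 libraries. Leaving out 1 library gave log2 departures of 0.76 to 0.84 for the Mt2-side height.

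The weaker peaks of the metallothionein window included one in CuNZ@Gel replicate 1 alone, from 94901386 to 94901579, with a fold of 3.58. Of all regions of the series, 46.1% came from 1 library. Another peak was seen in both CuNZ@Gel libraries and in no Gel library. It ran from 94893785 to 94894074, left of the Mt2-side region, with 290 and 190 bp, folds of 5.17 and 5.79 and the same summit, 94893980, in both CuNZ@Gel libraries. Its summit fragments numbered 22 and 19. Only 0.318% of all regions were likewise found in both CuNZ@Gel lists and neither Gel list, and this one ranked 4 of those 259 by mean fold and 145 by mean width. A peak of Gel replicate 2, with a fold of 3.60, ended 132 bp before it. The opposite case, peaks in both Gel libraries alone, was found in 2 regions of this window, from 94889995 to 94890329 and from 94895577 to 94895978. Their folds were 3.38 and 3.41 in the first and 3.56 and 3.03 in the second. Of the regions in both Gel lists, 24.9% lacked a CuNZ@Gel peak, and among the 500 of like fold the share was 58.2% for the first and 63.4% for the second. Another 2 regions, from 94910034 and from 94913834, had no peak in CuNZ@Gel replicate 2, the library of lowest background, and peaks in the others. Their folds were 4.95 in CuNZ@Gel and 4.26 and 4.35 in Gel for the first, and 4.05 in CuNZ@Gel and 5.01 and 2.88 in Gel for the second. Among the 500 regions of like Gel fold, 39.0% for the first and 34.2% for the second also had a peak in 1 CuNZ@Gel library. The part of depth in these presence calls was not tested.

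Beside its main region, the Hmox1 window held peaks whose fold was at or below the median of their list, which was 4.50 and 4.92 in CuNZ@Gel and 3.92 and 3.78 in Gel. There were 8 of them in the CuNZ@Gel lists, with folds of 3.07 to 4.05, widths of 165 to 495 bp and 10 to 15 summit fragments. The Gel lists held 10, with folds of 2.65 to 3.78, widths of 178 to 596 bp and 13 to 23 fragments. Of the 14 regions in the window, 10 came from 1 library, as did 46.1% of all regions of the series. The regions from 75811362 and from 75815814, left of the main region, had peaks in both Gel libraries and in CuNZ@Gel replicate 2. Their folds were 3.18 in CuNZ@Gel and 3.03 and 3.60 in Gel for the first, and 4.05 in CuNZ@Gel and 3.41 and 3.34 in Gel for the second. Among 500 regions of like Gel fold, 27.6% and 33.4% also kept a peak in 1 CuNZ@Gel library. Across both windows, 11 regions had peaks in both Gel libraries, of which 5 had peaks in both CuNZ@Gel libraries, 4 in one and 2 in none. Over the whole series, 55.7% of such regions had peaks in both CuNZ@Gel libraries and 19.4% in one.

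The share of covered bases that lay in the Mt2-side and Mt1-side regions was 64.0% and 79.8% in CuNZ@Gel and 55.4% and 53.4% in Gel. In the Hmox1 window the Hmox1 region held 64.0% and 64.9% in CuNZ@Gel and 58.7% and 44.3% in Gel. In both windows the totals thus combined wider main regions with less cover elsewhere. The other peaks covered 2900 and 1132 bp in CuNZ@Gel and 3447 and 3773 bp in Gel of the metallothionein window, and 1292 and 1261 bp in CuNZ@Gel and 1427 and 2064 bp in Gel of the Hmox1 window.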

How the data were processed

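H3ac was assayed by chromatin immunoprecipitation and sequencing in 4 libraries, 2 per group; 4 input libraries were not used here. MACS2 2.2.8, fastp, deepTools 3.5.6, SAMtools 1.17 and build GRCm39 are named, per the submitters' processing notes; none of the sources used here gives the aligner, the calling options or any use of the inputs. Each deposited list gives, per peak, a score, a fold enrichment ratio, a −log10 p-value and a −log10 q-value, made by the authors for each library separately. The fold is the authors' own value. The 2 deposited group lists were not used here.

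From fold and p, whole summit fragments and a background were solved (relative tolerance 0.0001) for 100% of peaks, assuming (fragments + 1)/(background + 1) and a Poisson tail; this was tested on simulated data. The lists hold no read totals, so the commonest background stands for depth. Peaks overlapping by at least 1 bp were merged; a shared region has peaks in all 4 libraries. Fits used limma 3.58.1 (R 4.3.3, trend and robust) with Benjamini-Hochberg adjustment over all shared regions, called at 0.05, and window totals used exact permutation over 6 assignments. Named items are the members and every region in their windows. The members, the lists and the tests were chosen with earlier results of these data known. The planned lists of other genes were left out, as the gene tables are of GRCm38. Alternatives were list thresholds, equal list length, merge distance, normalization, number of like regions, replicate block and leaving out each library.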

Additional observations from a re-analysis of the deposited data

How the results depend on the processing

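The within-list ratios, region ends and summit shifts were chosen after seeing the data; the other alternatives were planned. The difference in covered bp ranged over leaving out 1 library from -2295.5 to 151.5 bp in the metallothionein window and from -117 to 133 bp in the Hmox1 window, and with equal list length it was -33 and 1255.5 bp. The widths of the Mt2-side, Mt1-side and Hmox1 regions were called in no alternative, with limma adjusted p between 0.0913 and 0.652, but their values moved. Quantile normalization gave log2 widths of 0.55, 0.55 and 0.74 in that order, and scores at or above the list median gave 0.83 at the Hmox1 region, with a departure of 1.30 from like regions. Leaving out 1 library gave log2 widths of 0.05 to 0.31 at the Mt2-side, 0.08 to 0.21 at the Mt1-side and 0.19 to 0.49 at the Hmox1 region. Merging peaks within 500 bp joined the Mt1-side region to its left neighbour and reversed its log2 width to -0.14. The log2 width of the region beyond Mt1 ranged from -0.53 to 0.068 without 1 library, and reversed to 0.068 without CuNZ@Gel replicate 1 and to 0.48 with quantile normalization, which moved the median of all shared regions from -0.47 to 0.06 for width and from -0.27 to -0.001117 for height. For height, quantile normalization gave -0.25 at the Mt1-side region (limma adjusted p = 0.428) and 0.68 at the Hmox1 region (limma adjusted p = 0.0156), and limma without trend and robust gave 0.46 at the Mt2-side region (adjusted p = 0.0687). Without 1 library the Mt2-side log2 height was 0.42 to 0.50.

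Departures in height passed the threshold at the Mt2-side region with 2000 like regions (0.78, limma adjusted p = 0.0365), likeness in Gel width (0.80, limma adjusted p = 0.0376), equal list length (0.80, limma adjusted p = 0.0492) and scores at or above the list median (0.77, limma adjusted p = 0.0127). With that last setting the Hmox1 region also passed (0.66, limma adjusted p = 0.0291). Departures of width at these 3 regions kept their sign throughout, while that of the region between ranged from -0.70 to 0.43 without 1 library and reversed to 0.43 without CuNZ@Gel replicate 2, and its height departure reversed to 0.049 with the authors' fold. The cause of these changes was not tested.

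Counts of called regions were not stable. For width, 1641 were called, and 807 with equal list length, 3731 with peaks merged within 500 bp, 3873 for widths in bp, 5 with quantile normalization, 0 without trend and robust (limma, 7769 at an unadjusted p under 0.05) and 0 to 6984 without 1 library. For height the count was 6370, against 3707 without trend and robust, 431 with quantile normalization and 2402 to 6810 without 1 library. For departure in height it was 31, against 166 at the stricter score, 58 with equal list length, 95 with 2000 like regions, 422 with likeness in width, 9 with the authors' fold and 0 to 28 without 1 library. In fits with a replicate block (a term for the replicate number), 0 regions were called for width (limma, 8191 at an unadjusted p under 0.05) and 140 for departure in height, the Mt2-side region among them (0.80, limma adjusted p = 0.0296). Deviations of same-numbered libraries correlated at 0.0109 for width and 0.0133 for height, and the labels tie a number to no shared culture or day, so the block is given as an alternative only.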
